A study of Mus musculus with 2 samples.

Results

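The genes described here are 48 cell cycle genes of mouse, of which 20 act mainly in S phase and 28 in G2 and mitosis (M). They were taken by name from a list of cell cycle genes, and all 48 were found in both count tables, among 13211 genes listed in either. They were measured by single-cell RNA sequencing (sc-RNA-seq) in bone marrow of Col1a1fspKO mice (Fsp1-Cre;Col1a1flox/flox) and of Cre-negative;Col1a1flox/flox littermates, called WT. Mice of both genotypes carried the floxed Col1a1 gene, which encodes a chain of type I collagen, and were 2 months old and untreated. In Col1a1fspKO mice, Cre was driven by the promoter of Fsp1 (S100a4), so that Col1a1 is lost in cells that have used that promoter. Marrow was flushed from femur and tibia, pooled from 2 mice per genotype and sorted for live cells, and 1 library was made from each pool. Since each genotype was measured in a single library, the genotypes were compared without a test. All 95% intervals given here cover counting error only, not the spread between mice.

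Before a cell divides, it copies its DNA in S phase and then separates the copies in mitosis. S phase needs the MCM helicase that opens the double helix, the sliding clamp and its partners, and enzymes that supply nucleotides. Transcription of these genes is switched on by E2F factors late in G1, whereas genes of G2 and mitosis are held back in resting cells by the DREAM complex through the cell cycle homology region (CHR) and are driven later through CHR and CCAAT boxes. In bone marrow, early progenitors, preneutrophils and large pre-B cells are known to divide, and neutrophils leave the cell cycle before they reach the blood.

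The stretches just before 6 gene starts are shown with any matches to the kinds of site known to control S and G2/M genes. Mcm6, a subunit of the MCM helicase, and Pcna, the sliding clamp, stand for the S list, and Cdk1, the mitotic kinase, and Ube2c, the ubiquitin-conjugating enzyme of the anaphase-promoting complex, for the G2/M list. Hmgb2, a chromatin protein of the G2/M list, was the member with the most transcripts, and Cdca3 had the lowest ratio between the genotypes. Each line gives the 150 bases before the start, 5′ to 3′ on the strand of the gene, from RefSeq on GRCm38.p6. Capitals mark matches, on either strand, to an E2F site (TTTGGCGC or TTTCGCGC), to the CHR (TTTGAA or TTCGAA) or to the CCAAT box.
Mcm6, chr1:128359706-128359855, minus strand: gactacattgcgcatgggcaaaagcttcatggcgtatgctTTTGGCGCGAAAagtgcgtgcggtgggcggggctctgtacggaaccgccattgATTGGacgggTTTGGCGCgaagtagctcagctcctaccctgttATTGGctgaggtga
Pcna, chr2:132253181-132253330, minus strand: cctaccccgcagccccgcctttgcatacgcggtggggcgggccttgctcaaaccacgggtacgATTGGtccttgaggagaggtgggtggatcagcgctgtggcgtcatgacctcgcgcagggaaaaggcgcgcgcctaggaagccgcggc
Cdk1, chr10:69352913-69353062, minus strand: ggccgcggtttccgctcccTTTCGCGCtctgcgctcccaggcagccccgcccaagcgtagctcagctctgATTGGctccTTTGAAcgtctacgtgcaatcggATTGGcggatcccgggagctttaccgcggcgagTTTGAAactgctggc
Ube2c, chr2:164769779-164769928, plus strand: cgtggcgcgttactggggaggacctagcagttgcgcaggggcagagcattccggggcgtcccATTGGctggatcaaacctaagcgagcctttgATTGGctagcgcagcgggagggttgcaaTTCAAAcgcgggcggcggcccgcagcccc
Hmgb2, chr8:57511693-57511842, plus strand: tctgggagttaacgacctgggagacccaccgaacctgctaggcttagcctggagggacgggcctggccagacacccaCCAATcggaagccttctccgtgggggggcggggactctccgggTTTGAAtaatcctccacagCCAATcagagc
Cdca3, chr6:124830026-124830175, plus strand: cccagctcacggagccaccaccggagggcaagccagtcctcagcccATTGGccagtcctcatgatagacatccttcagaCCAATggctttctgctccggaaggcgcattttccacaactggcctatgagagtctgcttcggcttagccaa

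The Mcm6 stretch holds E2F sites that begin 110, 106 and 47 bases before the start, and the first 2 of these overlap. In Cdk1, CHR matches begin 71 and 15 bases before the start, with a CCAAT box at 80 and at 48. Cdk1, of the G2/M list, also holds an E2F site at 131 bases. Ube2c has its CHR match at 29 bases and Hmgb2 at 30 bases before the start. Pcna, of the S list, holds only a CCAAT box, at 87 bases, and no E2F site. Cdca3 holds CCAAT boxes at 104 and 71 bases and no CHR match. In the 250 bases before the start, 41 of the 48 members could be searched. Mcm4, Gins2, Rfc2, Tipin, Smc4, Aurkb and Tpx2 have no entry in the promoter table. An E2F site was found in 3 of 16 S members (18.75%) and 1 of 25 G2/M members (4.0%), compared with 0.759% of all 27025 genes in the promoter table. A gene with more than 1 promoter was counted if any of them held a match. The CHR was found in 25% of the S members, 44.0% of the G2/M members and 19.6% of the 27025 genes, and the CCAAT box in 68.8%, 88.0% and 37.5%. Both the CHR and a CCAAT box were present in 11 of 25 G2/M members, 3 of 16 S members and 7.93% of the 27025 genes. Among genes with at least 100 transcripts counted over both libraries, 1.79% held an E2F site, 14.9% the CHR and 40.7% the CCAAT box. A match describes these letters only, and binding was not measured.

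Each captured mRNA molecule was tagged near its 3′ end with a unique molecular identifier (UMI), so that 1 UMI stands for 1 molecule whatever the length of the gene. Levels are given as UMIs per 10000 UMIs of the same cells. The Col1a1fspKO table held 1309 cells and 8647722 UMIs, with a median of 4954 UMIs per cell, and that of WT 1169 cells and 8624469 UMIs, with a median of 5534. The lowest total of a cell was 2540 UMIs for Col1a1fspKO and 2909 for WT, so the Col1a1fspKO table reaches into shallower cells. Only 2 cell barcodes occurred in both tables. Col1a1 had 3 UMIs in Col1a1fspKO and 0 in WT, too few to check the deletion in these cells. S100a4, whose promoter drives Cre, had 2026 and 2184 UMIs. Fewer cells of a type and less RNA per cell are told apart here only within the classes of cells described below.

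Cells were sorted into classes by limits on marker genes, none of them a cell cycle gene, which placed 1247 Col1a1fspKO cells and 1124 WT cells. Of these classes 16 are described here, and statements on the highest or lowest class cover these 16. The classes stand for cells that look like the named type by these markers ("preneutrophil-like" and so on); the suffix is left out in the text, and the names may differ from those of the study. Another 50 and 38 cells carried markers of 2 lineages, and 12 and 7 cells met no limit. Marker levels followed from these limits and are no separate check of the names. Fcnb, a granule gene of preneutrophils, was at 8.23 and 11.2 UMIs per 10000 in Fcnb-positive preneutrophils of Col1a1fspKO and WT and at 0.0249 and 0 in Retnlg-high mature neutrophils. Retnlg, a gene of mature neutrophils, was at 446 and 393 UMIs per 10000 in the latter.

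The 48 members together took 67719 UMIs in Col1a1fspKO (0.783% of all UMIs) and 74622 in WT (0.865%). They were spread very unevenly. Hmgb2 had 21726 and 23647 UMIs and was seen in 90.5% and 92.1% of cells, and Bub1, a kinase of the spindle checkpoint and the scarcest member, had 107 and 109 UMIs. Most of the other members were seen in a minority of cells, such as Top2a, the topoisomerase that untangles sister DNA, in 29.1% and 34.8%. The 10% of cells with most UMIs of the S list held 57.2% of its UMIs in Col1a1fspKO and 49.3% in WT, whereas the 10% of cells with most UMIs of any gene held 28.8% and 26.3%. For the G2/M list without Hmgb2 the shares were 58.6% and 53.9%. UMIs of these lists therefore come in bundles from single cells, and an interval computed from UMIs is too narrow where a class has few cells.

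The S list was highest in pre-B cells and lowest in late neutrophils, in both libraries. In Vpreb1/Igll1-positive pre-B cells, which make the surrogate light chain, it stood at 47.8 UMIs per 10000 in Col1a1fspKO (95% interval 45.99 to 49.6) and 42.1 in WT (40.7 to 43.5), and in Vpreb1-low pre-B cells at 44.0 (42.2 to 45.9) and 45.1 (43.2 to 47.0). The value was 31.1 and 30.9 in early erythroid cells, 19.25 and 21.2 in Mpo-positive progenitors and 18.3 and 17.4 in early monocytes. It was 1.22 (0.9295 to 1.575) and 1.60 (1.254 to 2.01) in Mmp8-positive maturing neutrophils, and 1.52 and 1.47 in Retnlg-high mature neutrophils. The order of these pre-B classes differed between the libraries.

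The G2/M list was highest in 1 class in both libraries. Without Hmgb2, which is treated apart because late neutrophils also express it, its 27 other members summed to 102 UMIs per 10000 (99.0 to 105) in Vpreb1-low pre-B cells of Col1a1fspKO and 110.2 (107 to 113) in WT. Vpreb1/Igll1-positive pre-B cells had 56.7 and 82.6. Early monocytes had 43.2 and 36.2, and Fcnb-positive preneutrophils 27.1 and 33.1. Mmp8-positive maturing neutrophils had 2.19 (1.80 to 2.65) and 2.345 (1.92 to 2.83). The ratio of the G2/M list without Hmgb2 to the S list was 2.31 and 2.44 in Vpreb1-low pre-B cells, compared with 1.07 and 0.9496 in Mpo-positive progenitors. In Ltf-high immature neutrophils this ratio was 3.835 and 3.95.

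**Figure D1:**
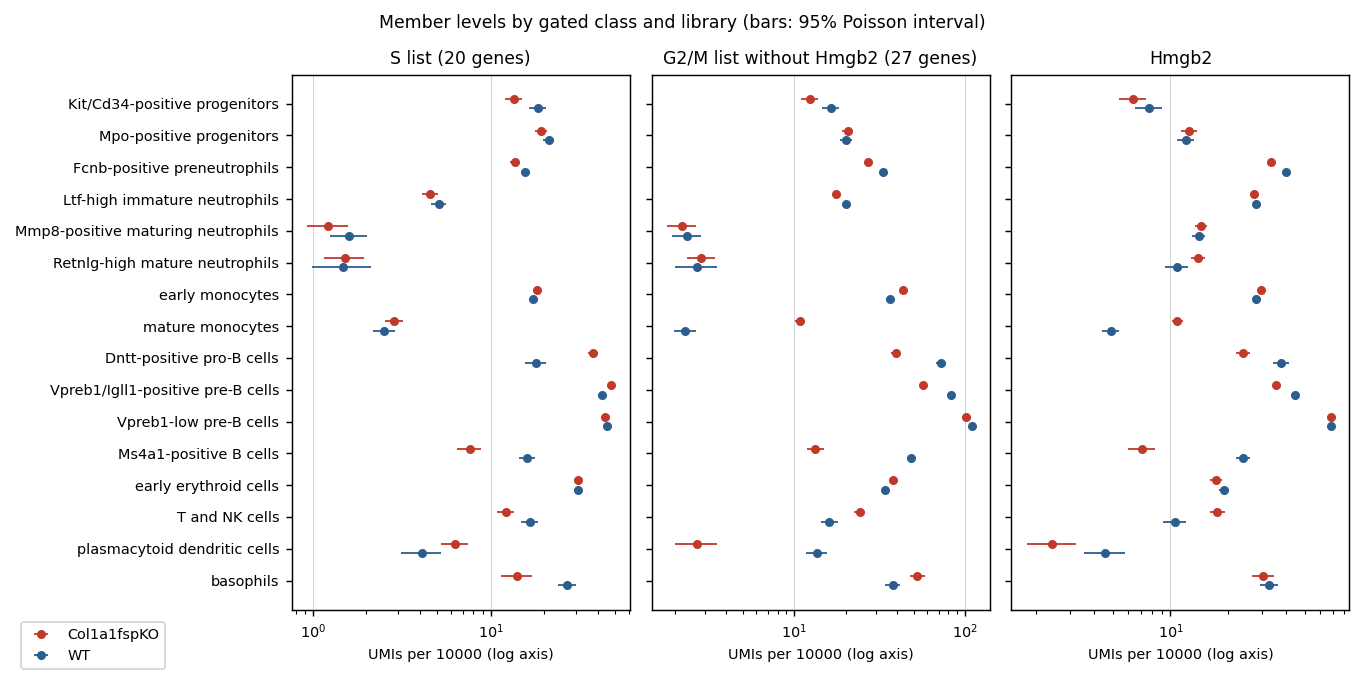
Levels of the S list, of the G2/M list without Hmgb2 and of Hmgb2 alone (UMIs per 10000, log axes) in 16 gated classes, with Col1a1fspKO in red and WT in blue; points are pooled levels and bars are 95% Poisson intervals for counting error. The S list ranges from 47.8 in Vpreb1/Igll1-positive pre-B cells to 1.22 in Mmp8-positive maturing neutrophils of Col1a1fspKO, whereas Hmgb2 is at 14.4 in the latter.

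Among the genes of S phase, the 6 subunits of the MCM helicase were high and low in much the same classes. Their summed level was 10.1 and 7.93 UMIs per 10000 in Vpreb1/Igll1-positive pre-B cells, 7.78 and 7.82 in Vpreb1-low pre-B cells, 4.415 and 5.53 in Mpo-positive progenitors, and 0.186 and 0.219 in Mmp8-positive maturing neutrophils. Mcm6 had 645 and 654 UMIs and its level was 2.29 and 1.5 in Vpreb1/Igll1-positive pre-B cells. Mcm5, another subunit, had 644 and 615 UMIs and reached 2.04 and 1.56 in the same cells.

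The other replication factors include Tipin, which steadies the replication fork, and Pcna. Tipin had 1619 and 1628 UMIs, with a level of 3.78 and 3.65 in Vpreb1-low pre-B cells. Pcna had 1450 and 1595 UMIs, with 5.195 and 4.49 in Vpreb1/Igll1-positive pre-B cells and 0.0828 and 0.110 in Mmp8-positive maturing neutrophils. Rfc2, a subunit of the clamp loader, differed from its group. Its highest level was in basophils, at 2.66 and 4.09, from only 9 and 18 cells, and it was at 0.671 and 0.811 in Retnlg-high mature neutrophils, where Pcna had 0.0746 and 0.

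The nucleotide genes did not all peak in the same cells. Rrm2, the small subunit of ribonucleotide reductase, was highest in Vpreb1-low pre-B cells, at 7.825 and 7.42 UMIs per 10000. Dut, which removes dUTP, was highest in Vpreb1/Igll1-positive pre-B cells, at 8.26 and 7.06, and had 5.84 and 5.55 in Vpreb1-low pre-B cells. Dut also exceeded Rrm2 in Mpo-positive progenitors, with 4.03 against 1.04 in Col1a1fspKO and 4.03 against 0.947 in WT, while in Fcnb-positive preneutrophils Rrm2 stood at 2.48 and 2.12 and Dut at 1.625 and 2.11. Ung, which cuts uracil out of DNA, had a level of 0.850 and 0.611 in Mpo-positive progenitors but 0.0435 and 0.0563 in Fcnb-positive preneutrophils. Slbp, the protein that binds the stem-loop of histone mRNA, was also highest in Vpreb1-low pre-B cells, with 5.34 and 5.98. Uhrf1, which carries DNA methylation over to the new strand, reached 1.92 and 2.16 in Vpreb1/Igll1-positive pre-B cells.

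Of the genes of G2 and mitosis, 28 of 28 in Col1a1fspKO and 26 of 28 in WT had their highest level in Vpreb1-low pre-B cells. The share of all genes that peak in this class was not counted. Mki67, the Ki-67 proliferation mark, had 2.97 and 2.73 there, and Birc5 (survivin) 7.32 and 8.03. The exceptions in WT were the spindle genes Aurka and Tpx2, which stood highest in Dntt-positive pro-B cells, a class of 17 WT cells. The S members were spread over 4 peak classes in Col1a1fspKO and 5 in WT. In Col1a1fspKO, 8 of 20 peaked in Vpreb1/Igll1-positive and 7 in Vpreb1-low pre-B cells, and in WT 7 and 9.

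**Figure D2:**
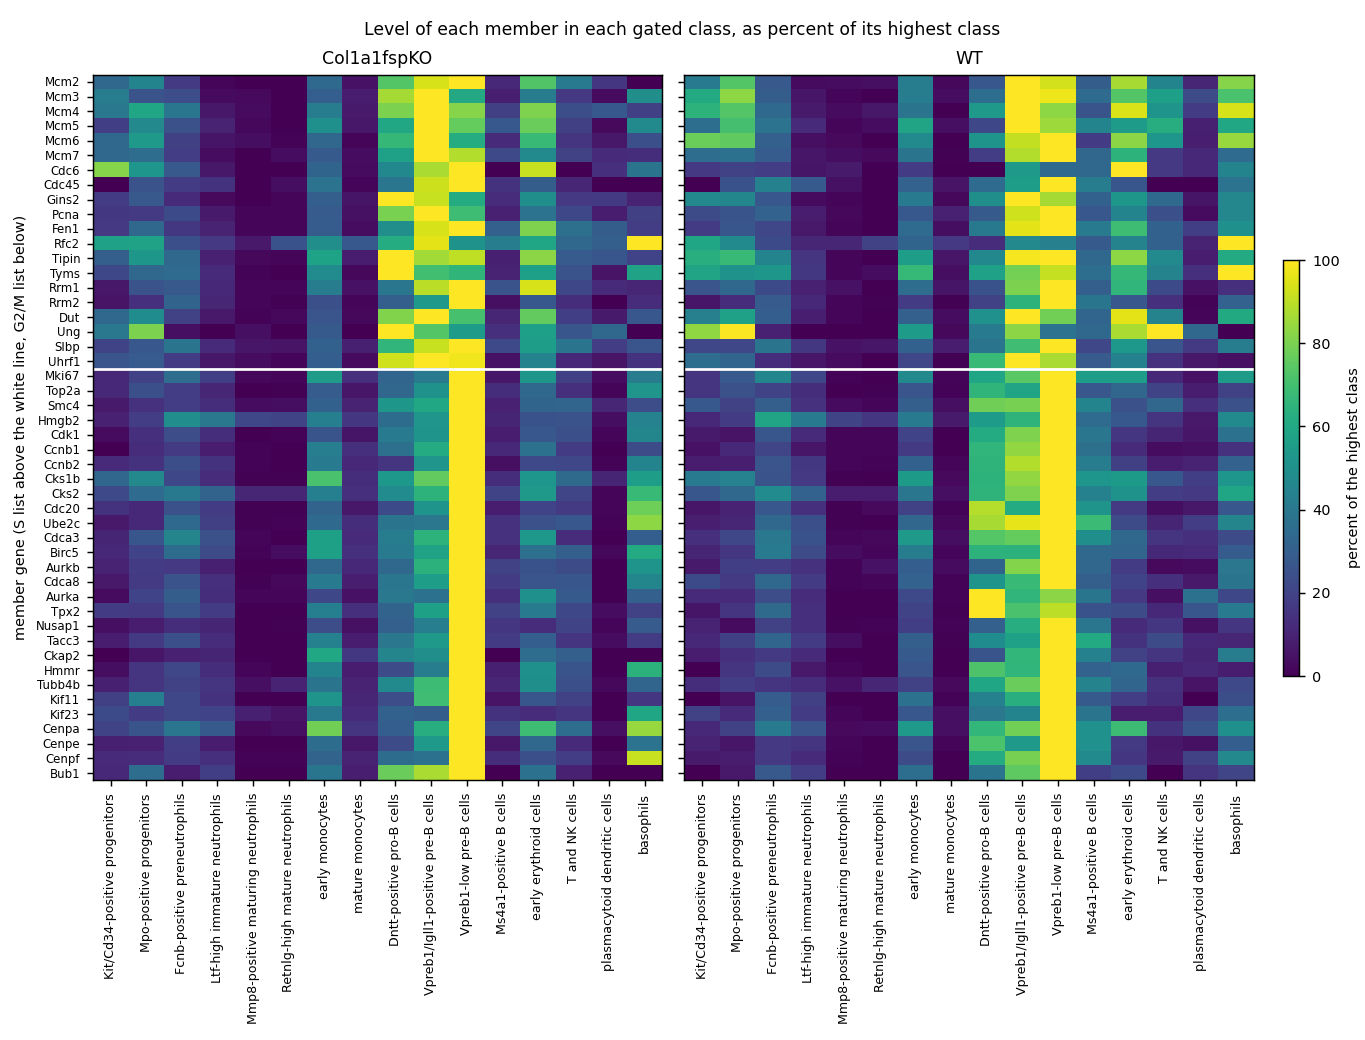
Level of each of the 48 members (rows, S list above the white line) in 16 gated classes (columns), drawn as a percent of the highest of these classes for that gene in the same library. In the Vpreb1-low pre-B column, 28 of 28 G2/M members reach 100 percent in Col1a1fspKO and 26 in WT, whereas the S members peak in several columns. Peak classes were not counted for all genes.

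Within the G2/M list, Top2a reached 7.80 and 8.22 UMIs per 10000 in Vpreb1-low pre-B cells and was at 0.0207 and 0 in Mmp8-positive maturing neutrophils. Cks2 and Cks1b, small subunits that bind Cdk1, had 9.36 and 5.803 in Vpreb1-low pre-B cells of Col1a1fspKO and 9.56 and 6.21 in WT. They differed in late neutrophils, where Cks2 had 0.993 and 0.723 UMIs per 10000 in Mmp8-positive cells and Cks1b had 0.0414 and 0.0438. Cdk1 itself reached 3.05 and 3.48 in Vpreb1-low pre-B cells.

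Ube2c had 9.44 and 9.03 UMIs per 10000 in Vpreb1-low pre-B cells and 3.75 and 8.7 in Vpreb1/Igll1-positive pre-B cells. Cdca3, a trigger of mitotic entry, had 3.30 and 4.41 in the former. Cdca8, which carries survivin and Aurora B to the centromere, had 3.68 and 4.11 there. Among the spindle genes, Tubb4b, a beta-tubulin, reached 7.34 and 8.88 and Nusap1, which bundles microtubules, 5.398 and 5.87, again in Vpreb1-low pre-B cells. Cenpa, the histone variant of the centromere, reached 4.97 and 5.55, and Cenpf, a kinetochore protein, 2.14 and 2.78. Tubb4b, Hmgb2, Cks1b and Cks2 have close copies in the genome, and how the authors' counting divided reads between such copies is not known.

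Some UMIs of the members came from classes in which the lists were low. In 4 classes the G2/M list without Hmgb2 was under 15 UMIs per 10000 in both libraries, namely Mmp8-positive and Retnlg-high neutrophils, mature monocytes and plasmacytoid dendritic cells. These are not free of cells with the list, since 12 of 163 mature monocytes in Col1a1fspKO and 2 of 147 in WT carried at least 5 G2/M UMIs at equal depth without 5 S UMIs. In Col1a1fspKO and WT, Rfc2 had 12.6% and 8.77% of its UMIs in the 4 classes, Hmgb2 10.6% and 5.47%, Kif23, a motor of the cytokinetic bridge, 7.59% and 3.05%, Cks2 6.31% and 2.72% and Tubb4b 5.43% and 2.74%. For Rrm2 the share was 0.917% and 0.437%. These 5 genes had the highest shares over both libraries together, but not within each, as Slbp had 3.15% in WT, and Ckap2 5.88%, Smc4 5.67% and Ccnb1 5.45% in Col1a1fspKO. Without mature monocytes the shares were 5.48% and 3.92% for Rfc2, 5.997% and 3.895% for Hmgb2, 2.68% and 1.695% for Kif23, 2.76% and 1.91% for Cks2 and 2.19% and 1.97% for Tubb4b. Hmgb2 was at 13.9 UMIs per 10000 (12.8 to 15.1) in Retnlg-high mature neutrophils of Col1a1fspKO and 10.8 (9.40 to 12.35) in WT, against 2.86 and 2.69 for the other 27 G2/M members summed. In plasmacytoid dendritic cells Hmgb2 was at 2.43 and 4.58, so that it did not stand at a like level in each of these classes.

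The levels of the members differed along the neutrophil line. The S list went from 19.25 and 21.2 UMIs per 10000 in Mpo-positive progenitors to 13.7 and 15.6 in Fcnb-positive preneutrophils, 4.57 and 5.10 in Ltf-high immature neutrophils and 1.22 and 1.60 in Mmp8-positive cells. The G2/M list without Hmgb2 instead went up between the first stages, from 20.6 and 20.1 to 27.1 and 33.1, then to 17.5 and 20.1 in Ltf-high cells, and only then down to 2.19 and 2.345. Hmgb2 went from 12.45 and 12 to 33.3 and 39.9, and then stood at 27.2 and 27.9, 14.4 and 14.05, and 13.9 and 10.8. From Mmp8-positive to Retnlg-high cells, the S list differed by less than its counting error in both libraries, with ratios of 0.805 (0.553 to 1.17) and 1.09 (0.699 to 1.735).

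Between Fcnb-positive preneutrophils and Ltf-high immature neutrophils, the S list was 2.996 times as high in the former in Col1a1fspKO (2.66 to 3.38) and 3.07 times in WT (2.75 to 3.42). For the G2/M list the ratio was 1.35 (1.29 to 1.41) and 1.52 (1.46 to 1.58), and without Hmgb2 1.54 (1.44 to 1.655) and 1.645 (1.55 to 1.746). Member by member, 17 of the 19 S members with a ratio in Col1a1fspKO and 20 of 20 in WT were at least 1.5-fold higher in preneutrophils, where 27.8% and 24.9% of all 8156 genes with at least 100 UMIs were, or 32.99% and 28.5% of those with a ratio. Of the G2/M members, 15 of 28 and 20 of 28 were. The median ratio was 3.12 and 3.24 over the S members, 1.58 and 1.57 over the G2/M members and 1.17 and 1.13 over all genes. A gene with 0 UMIs in a stage was set to 3 UMIs for these counts, which gives a bound, and a gene with at most 3 UMIs in both stages was given no ratio. Mcm2 had the highest ratio of the S members, 9.07 and 10.1, from 2 and 3 UMIs in Ltf-high cells.

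Between Ltf-high and Mmp8-positive neutrophils, the G2/M list without Hmgb2 was 7.99 times as high in the former in Col1a1fspKO (6.56 to 9.83) and 8.59 times in WT (7.065 to 10.54), and the S list 3.74 times (2.84 to 5.01) and 3.19 times (2.48 to 4.14). Of the G2/M members, 26 of 28 in each library were at least 1.5-fold higher in Ltf-high cells, against 25.8% of all genes in Col1a1fspKO and 26.4% in WT, or 33.1% and 32.9% of those with a ratio, with medians of 7.83 and 10.0. Only 16 of 20 S members had a ratio in each library, and 14 and 15 of these 16 were, with medians of 3.44 in both. Ube2c went from 1.78 and 2.20 UMIs per 10000 to 0.0414 and 0.0438, Birc5 from 1.67 and 1.87 to 0.0621 and 0.263, and Cdc20, the activator of the anaphase-promoting complex, from 0.660 and 0.554 to 0.0207 and 0.0219. Hmgb2 had a ratio of only 1.88 and 1.985.

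This order, with the S list low a stage ahead of the G2/M list, rests on where the stage limits were set. Preneutrophils were taken as neutrophils with at least 4 Fcnb UMIs per 10000, a limit that a few UMIs meet in a shallow cell. When 18 unsupervised clusters, made without cell cycle genes and named from the same markers, took the place of the limits, both lists differed about as much at the first step. The ratio of preneutrophils to Ltf-high cells was then 9.41 and 11.5 for the S list and 10.1 and 10.3 for the G2/M list without Hmgb2, and the next step had ratios of 1.44 and 1.275 and of 1.746 and 1.66. The preneutrophil cluster held 29 Col1a1fspKO cells and 37 WT cells that the limits had placed among the Ltf-high cells, and the Ltf-high cluster held 32 and 23 cells that the limits had placed among preneutrophils. Along bins of Ltf, the granule gene of immature neutrophils, the picture within these 2 stages differed between the libraries. From under 20 through 20 to 40, 40 to 60 and over 60 Ltf UMIs per 10000, the S list ran 17.0, 10.1, 4.80 and 3.50 in Col1a1fspKO and 22.9, 12.2, 7.69 and 2.86 in WT. The G2/M list without Hmgb2 ran 33.5, 30.2, 9.84 and 6.04 in Col1a1fspKO and 26.0, 37.15, 20.55 and 12.2 in WT. In WT the G2/M list was higher in the second bin than in the first while the S list was lower, whereas in Col1a1fspKO both lists were lower from bin to bin. Between 20 to 40 and 40 to 60 the G2/M list differed by a larger factor than the S list in both libraries. The lowest bin had only 14 and 15 cells.

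**Figure D3:**
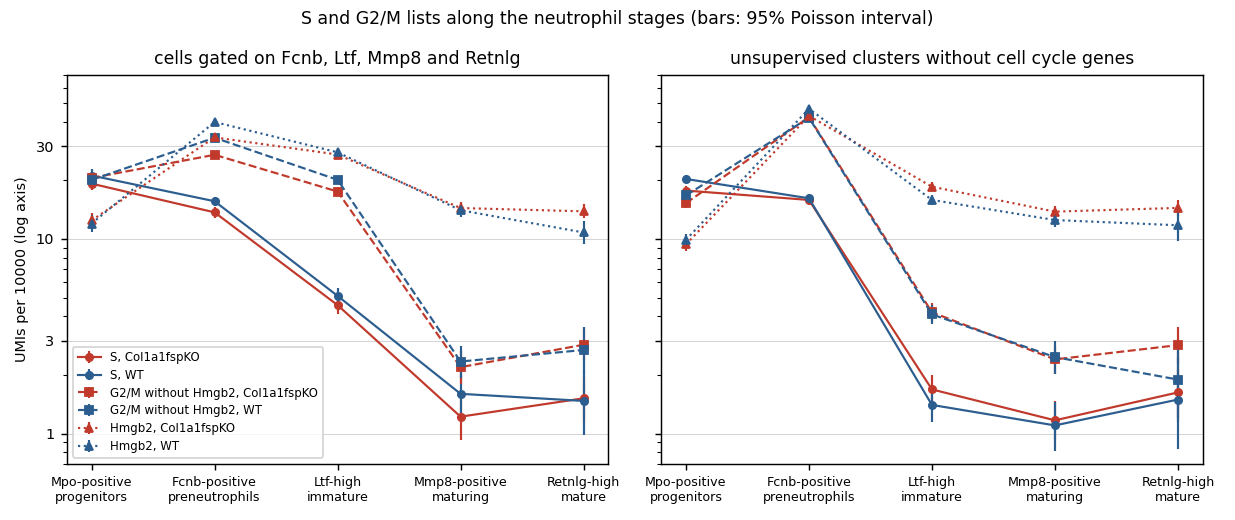
S list, G2/M list without Hmgb2 and Hmgb2 (UMIs per 10000, log axis) along 5 neutrophil stages in Col1a1fspKO (red) and WT (blue), with stages set by marker limits on the left and by unsupervised clusters on the right; bars are 95% Poisson intervals for counting error. On the left the G2/M list without Hmgb2 is still at 17.5 and 20.1 in Ltf-high cells, whereas on the right it is at 4.20 and 4.095 there.

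Single cells were then sorted by which lists they carried. All cells were reduced at random to 2500 UMIs, a depth that each of them reached, and a list counted as present with at least 5 UMIs, Hmgb2 left out. In Col1a1fspKO, 75 cells (5.73%, exact Clopper-Pearson interval 4.53 to 7.13) carried the S list only, 220 (16.8%) both lists, 161 (12.3%, 10.6 to 14.2) the G2/M list only and 853 (65.2%, 62.5 to 67.75) neither. In WT the numbers were 78 (6.67%), 231 (19.8%), 176 (15.1%) and 684 (58.5%, 55.6 to 61.35). A state set by such a limit is a range and not a type of cell, and 114 and 119 cells had 3 to 6 thinned UMIs of the G2/M list without Hmgb2. Cells that carried a list had more UMIs of all genes before thinning, with medians from 8299 to 10450, than cells with neither, with 4053 and 4376.

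The states were distributed differently over the classes. Of Vpreb1/Igll1-positive pre-B cells, 30 of 39 in Col1a1fspKO (76.9%, 60.7 to 88.9) and 44 of 60 in WT (73.3%, 60.3 to 83.9) carried both lists. Of Fcnb-positive preneutrophils, 7 of 73 and 16 of 98 carried both, 12 and 18 the S list only, and 23 and 38 the G2/M list only. Among Ltf-high immature neutrophils the S list alone was carried by 5 of 171 cells in Col1a1fspKO and 0 of 160 in WT (upper limit 1.875%, taken, as for other shares of 0, as 3 cells of the total; the Clopper-Pearson bound is 2.28%), and the G2/M list alone by 24 and 31. No Mmp8-positive maturing neutrophil carried either list (0 of 132 and 0 of 115, limits of 2.27% and 2.61%, Clopper-Pearson bounds of 2.76% and 3.16%). Retnlg-high mature neutrophils, taken as the background because they do not divide, had 1 of 124 and 0 of 56, the latter allowing up to 5.36% (Clopper-Pearson bound 6.375%).

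Leaving out Hmgb2 mattered for these shares. With at least 5 thinned UMIs of the G2/M list without Hmgb2, 29.1% of Col1a1fspKO cells (26.7 to 31.65) and 34.8% of WT cells (32.1 to 37.6) were counted, and 36.2% and 43.9% before thinning. With Hmgb2 the shares were 48.8% and 52.3% after thinning and 66.8% and 69.6% before. In the background class of Retnlg-high mature neutrophils they then stood at 40.3% and 26.8% after thinning, so that adding Hmgb2 to the other members placed many such cells above the limit.

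**Figure D4:**
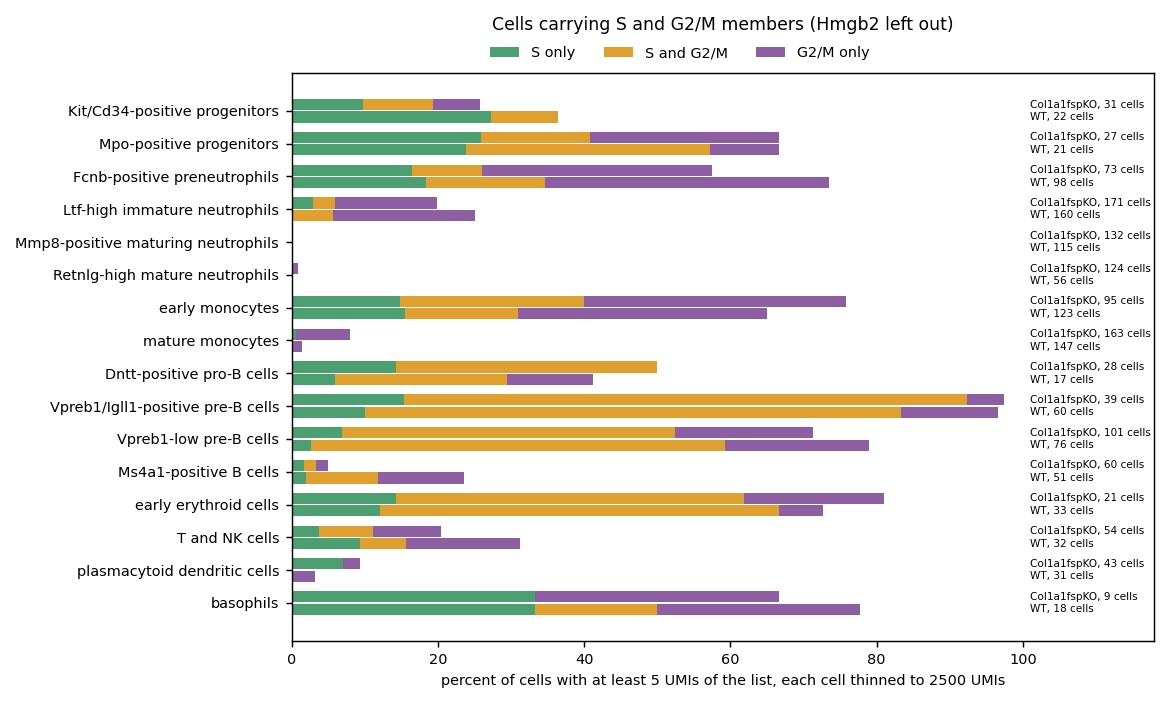
Share of cells (percent) in 16 gated classes that carried at least 5 UMIs, at 2500 UMIs per cell, of the S list only, of both lists or of the G2/M list only (Hmgb2 left out), in Col1a1fspKO and WT; the remainder up to 100 percent is cells with neither. Most Vpreb1/Igll1-positive pre-B cells carry both lists (76.9% and 73.3%), and all Mmp8-positive maturing neutrophils carry neither.

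The cell states were set with the members, so only other genes can be compared between them. A list of 115 further cell cycle genes was used, of which 113 had at least 100 UMIs. Between cells with the S list only and cells with the G2/M list only, 33 of 113 were at least 1.5-fold higher in the former in both libraries, where 9.27% of 8108 genes outside the members were, and 39 of 113 were higher in the latter, where 8.05% were. The following examples were chosen after their values were seen. E2f1, a transcription factor that starts S phase, stood at 0.693 against 0.124 thinned UMIs per 10000 in Col1a1fspKO and 1.28 against 0.159 in WT, and Hells, a chromatin remodeller, at 0.960 against 0.174 and 0.718 against 0.182. These rest on few UMIs, 13 against 5 and 25 against 7 for E2f1. Ccna2, cyclin A, stood at 0.427 against 2.81 and 0.308 against 3.545, Pttg1 (securin), which guards sister chromatids, at 0.267 against 3.58 and 0.667 against 3.32, and the histone H2afx at 2.24 against 11.2 and 1.44 against 10.8. Early monocytes made up the largest group of S-only cells (14 of 75 and 19 of 78) and of G2/M-only cells (34 of 161 and 42 of 176), and the class mix of the states was not held equal.

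Of 8 genes linked to leaving the cycle, 6 were lower in Retnlg-high cells than in preneutrophils in both libraries, as were 19 of 20 S members, 28 of 28 G2/M members and 53% of all 8156 genes. The other 2, Cdkn1b and Cdkn2d, were higher in both, as were 20.3% of all genes. Cdkn2d, an inhibitor of Cdk4 and Cdk6, was at 2.09, 2.39, 2.44 and 3.21 UMIs per 10000 from preneutrophils to Retnlg-high cells of Col1a1fspKO and at 2.25, 2.62, 2.70 and 2.84 in WT. Cdkn2c, another inhibitor of these kinases, was at 0.595, 0.372, 0.0828 and 0 and at 1.01, 0.577, 0.0219 and 0. Both genes were also at least 1.5-fold higher in G2/M-only than in S-only cells in both libraries. Ccnd3, cyclin D3, was at 5.09, 4.81, 6.27 and 6.365 and at 4.45, 4.43, 5.13 and 4.87.

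Over all cells, both lists, as sums of their members, stood slightly lower in Col1a1fspKO than in WT. The S list was at 19.4 against 20.3 UMIs per 10000, a ratio of 0.957 (0.937 to 0.977), and the G2/M list at 58.9 against 66.25, a ratio of 0.889 (0.879 to 0.900), or 0.870 (0.857 to 0.884) without Hmgb2. No member was at least 1.5-fold higher or lower, where 1.73% of 8156 genes were higher and 1.53% lower. Of the S members 14 of 20 had a ratio below 1, with a median of 0.977, and of the G2/M members 27 of 28, with a median of 0.8725. Among all genes 59.5% were below 1, with a median ratio of 0.972, or -0.04 on the log2 scale. The median of the S members was thus not below that of all genes, whereas that of the G2/M members was. The counting interval lay below 1 for 5 S members and 20 G2/M members and above 1 for none. Intervals were not counted over all genes, so these counts have no background to be set against.

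The ratio of the S list depended on the class mix and on the depth of the cells kept. When every class was given the share of UMIs it had in WT, the S list stood at 20.5 against 20.3, a ratio of 1.01, and the G2/M list at a ratio of 0.932. With cells below 2909 UMIs removed, 9 of 20 S members and 25 of 28 G2/M members were below 1, where 58.0% of all 8156 genes were. How much of the remaining difference lies between mice was not tested, since each genotype had 1 library.

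Among the S members, Mcm4 had the lowest ratio, with 265 UMIs in Col1a1fspKO and 332 in WT (0.796, 0.675 to 0.938). Pcna, with 1450 and 1595 UMIs, had a ratio of 0.907 (0.844 to 0.974), and Dut, with 2253 and 2531, of 0.888 (0.838 to 0.94). Cdc45, a partner of the MCM helicase, had the highest ratio, 1.225 (0.971 to 1.55), from 167 and 136 UMIs. The ratio of Rrm2 was 1.06 (0.995 to 1.12) and that of Mcm5 1.04 (0.934 to 1.17), intervals that hold 1.

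Among the G2/M members, Cdca3 stood lowest, with 1158 UMIs in Col1a1fspKO and 1631 in WT (0.708, 0.656 to 0.764). It was below 1 in 10 of the 12 described classes in which it had at least 20 UMIs, and its interval lay below 1 in 5 of them. In Vpreb1/Igll1-positive pre-B cells it had 121 against 271 UMIs (0.634, 0.508 to 0.789), in Vpreb1-low pre-B cells 163 against 208 (0.7475, 0.605 to 0.922) and in early monocytes 175 against 279 (0.787, 0.648 to 0.954). Mature monocytes went the other way, with 36 against 13 UMIs. With the class mix of WT the ratio of Cdca3 was 0.757, and under the other settings it lay between 0.633 and 0.744.

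Cenpf was next, with 525 and 731 UMIs (0.716, 0.639 to 0.802). Much of this came from Vpreb1/Igll1-positive pre-B cells, with 46 against 178 UMIs (0.367, 0.2595 to 0.510), while early monocytes had 64 against 76 at a ratio of 1.06 (0.746 to 1.49). Kif23 followed with 0.757 (0.634 to 0.904) and Ckap2, a spindle protein, with 0.776 (0.605 to 0.992). Aurkb, the Aurora B kinase, was the only G2/M member above 1, at 1.01 (0.8915 to 1.14). Hmgb2 had a ratio of 0.916 (0.900 to 0.933), Top2a 0.872 (0.8195 to 0.928), Ube2c 0.866 (0.822 to 0.911) and Birc5 0.948 (0.898 to 1.0).

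**Figure D5:**
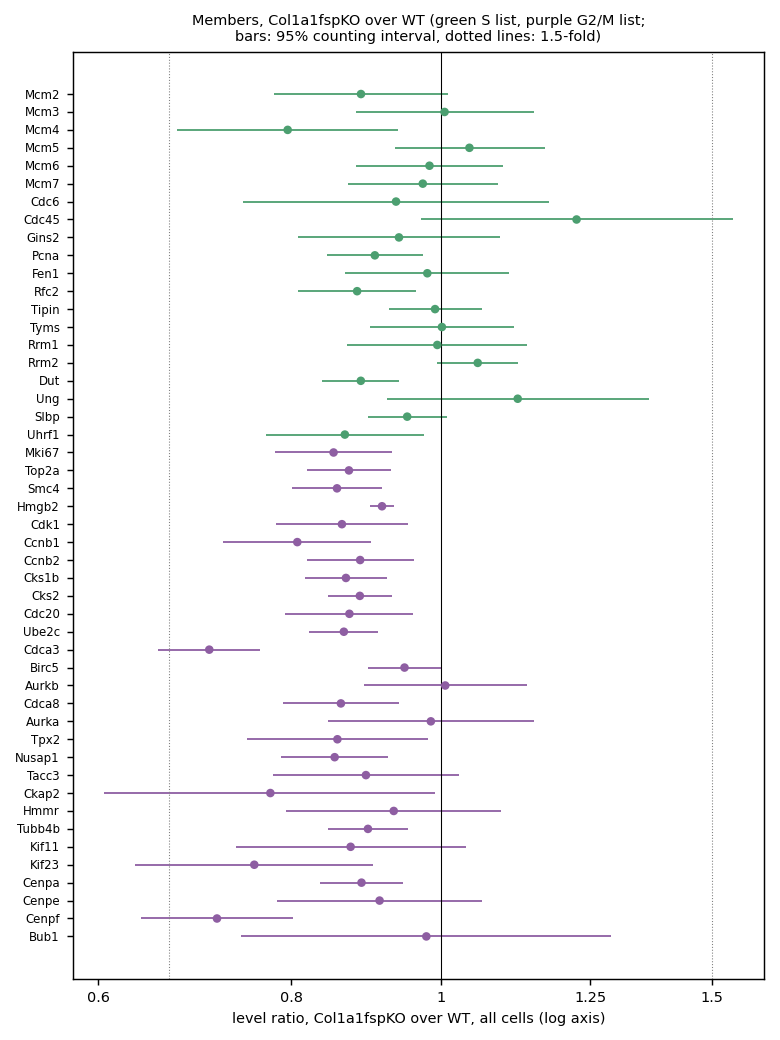
Ratio of Col1a1fspKO to WT over all cells (log axis) for each of the 48 members, grouped by role, with 95% binomial intervals for counting error. G2/M members lie between 0.708 (Cdca3) and 1.01 (Aurkb), and S members between 0.796 (Mcm4) and 1.225 (Cdc45).

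Of the other cell cycle genes, 97 of 113 were below 1, with a median of 0.8925, where 59.5% of all 8156 genes were. None was at least 1.5-fold higher or lower, where 1.73% of all genes were higher and 1.53% lower. H2afz, a histone variant with the most UMIs of these genes, had a ratio of 0.911 (0.895 to 0.927).

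Within classes the direction was not uniform. The ratio of the S list was below 1 in 9 of 16 classes, and that of the G2/M list in 8. In Vpreb1/Igll1-positive pre-B cells, 39 cells in Col1a1fspKO and 60 in WT, the S list was at 47.8 against 42.1 UMIs per 10000 (1.135, 1.08 to 1.19) and the G2/M list at 92.2 against 127 (0.726, 0.702 to 0.751). Vpreb1-low pre-B cells had ratios of 0.976 (0.919 to 1.04) and 0.9515 (0.923 to 0.981). Fcnb-positive preneutrophils had ratios of 0.876 (0.806 to 0.952) for the S list and 0.826 (0.794 to 0.859) for the G2/M list. Early monocytes had 1.05 (0.986 to 1.12) and 1.13 (1.10 to 1.17). With clusters in place of the limits, the differences in preneutrophils and early monocytes were smaller or turned. In preneutrophils the S list was then at 15.9 against 16.2 UMIs per 10000, a log2 ratio of -0.03 (-0.13 to 0.08), and the G2/M list at 85.2 against 88.7, a log2 ratio of -0.06 (-0.10 to -0.01), or 42.3 against 42 without Hmgb2. In early monocytes the log2 ratio was -0.10 (-0.20 to -0.01) for the S list and 0.02 (-0.03 to 0.06) for the G2/M list.

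Shares of cells gave a less clear picture than UMIs. The share with at least 5 thinned UMIs of the G2/M list without Hmgb2 was 82.05% (66.5 to 92.5) against 86.7% (75.4 to 94.1) in Vpreb1/Igll1-positive pre-B cells, 41.1% (29.7 to 53.2) against 55.1% (44.7 to 65.2) in preneutrophils and 61.05% (50.5 to 70.9) against 49.6% (40.5 to 58.75) in early monocytes. In these 3 classes the intervals of the 2 libraries overlapped.

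The widest ratios came from classes in which a few cells held most UMIs. In mature monocytes the G2/M list without Hmgb2 was at 10.8 against 2.295 UMIs per 10000, and 5 of 163 Col1a1fspKO cells held 632 of its 1004 UMIs. Without the 5 highest cells of each library the levels were 4.27 and 1.78. In Ms4a1-positive B cells they were 13.3 against 48.5 with all cells and 3.04 against 19.05 without the 5 highest, and 2 of 60 cells against 11 of 51 were above the limit. In plasmacytoid dendritic cells, 1 WT cell held 166 of 198 UMIs, and without the 5 highest cells the levels were 1.85 and 1.595. In Dntt-positive pro-B cells the order turned, from 39.2 against 72.0 to 14.2 against 8.19, and in T and NK cells the levels went from 24.2 against 16.1 to 6.94 against 5.98. Mpo, Elane, Prtn3 and Ctsg summed to 14.2 and 40.1 UMIs per 10000 in the T and NK class, against 95.1 and 148 in Mpo-positive progenitors. Levels of this class may therefore not be those of T and NK cells alone.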

How the data were processed

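The authors flushed femur and tibia marrow of 2 mice per genotype, sorted live cells and made 1 10x Genomics 3′ (v2) library per genotype. Per the submitters' processing notes, Cell Ranger and Seurat 3.5.3 were used with mm10. The deposited values are whole-number UMI counts per gene and cell, already filtered on cells, with 8647722 and 8624469 UMIs in all. Members, gene lists and marker limits were chosen with earlier results of these data known. Named genes were the 2 members with most UMIs in each role group, the 5 lowest and 5 highest ratios, and the 5 with the largest share in low-cycling classes; others are named where a count or peak turned on them.

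Counts were summed per class and divided by all UMIs of the class. Levels carry exact Poisson intervals, ratios exact binomial and shares Clopper-Pearson intervals, all at 95%. For a share of 0 the limit is 3 cells of the total. No test between genotypes was made. A class of cells is not reported here. Limits in UMIs per 10000 were 200 for Ngp, Camp, Ltf and Lcn2 summed or 100 for Retnlg (neutrophils), then 20 Ltf, 4 Fcnb, 10 Mmp8 and 200 Retnlg for the stages. A later stage limit in this order overrode an earlier one. Scrublet called 5 cells in each library (0.382% and 0.428%), too few to serve as a filter, so doublets were not removed beyond the 50 and 38 cells with markers of 2 lineages, which entered no class. Clusters (Leiden, resolution 1, 27 components, 20 neighbours, 2000 variable genes) left out all cell cycle genes. Ratio code was tested on simulated data. Alternatives were thinning, a shared UMI minimum, means over cells, another scaling, a cell filter, removal of the cells Scrublet called, lists without their 3 most abundant members, and clusters. Python 3.11.15, numpy 2.4.6, pandas 2.3.3, scipy 1.17.1, scanpy 1.11.5, leidenalg 0.10.2 and matplotlib 3.10.9 were used.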

Additional observations from a re-analysis of the deposited data

How the results depend on the processing

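No paired analysis was possible because each genotype had 1 library, and for the same reason no replicate could be left out. All values here are log2 ratios unless given as percent, and the cause of each change was not tested. Lists without Hmgb2, the class mix of WT, the removal of cells of 2 lineages and shares without mature monocytes were alternatives chosen after seeing the data. The S list over all cells (-0.06) was -0.14 with thinned cells, -0.0018 with the shared UMI minimum, -0.13 as a mean over cells and, reversed, 0.018 with the class mix of WT. The G2/M list over all cells (-0.17) was -0.22 thinned, -0.1155 with the shared minimum, -0.20 as a mean over cells (-0.2031), -0.15 with the scaling that leaves out the 20 most abundant genes (-0.1472), -0.2036 without its 3 most abundant members, -0.2007 without Hmgb2 and -0.10 with the class mix of WT (-0.1016). From preneutrophils to Ltf-high cells, the S list in Col1a1fspKO (1.58) was 1.38 with that scaling and 3.23 with clusters, and in WT (1.62) 1.91 thinned, 1.86 as a mean over cells, 1.45 with that scaling and 3.53 with clusters. The G2/M list in Col1a1fspKO (0.43) was 0.57 thinned, 0.5445 as a mean, 0.23 with that scaling, 0.65 without its top 3, 1.90 with clusters and 0.63 without Hmgb2, and in WT (0.60) 0.82, 0.81, 0.44, 0.77, 2.15 and 0.72. The share of cells with the G2/M list in Col1a1fspKO (48.8%) was 51.65% with the shared minimum, 27.7% without the top 3, 66.8% unthinned and 29.1% without Hmgb2, and in WT (52.3%) 33.36%, 69.6% and 34.8% under the last 3. Ratios within a class reversed for the S list in Dntt-positive pro-B cells (-0.54 with clusters) and for the G2/M list in Ltf-high cells (0.19 with clusters), Retnlg-high cells (-0.13 without the top 3), Vpreb1-low pre-B cells (0.066 with the shared minimum) and plasmacytoid dendritic cells (2.73 with clusters). Ratios within classes were set against other settings in 287 comparisons. Of these, 217 stayed within the counting interval of the main value, 65 moved out of it and 5 reversed. For the 10 main results, 48 of 84 comparisons stayed the same, 35 moved and 1 reversed, with counts of classes allowed 1.5-fold. Both sets of comparisons include the removal of the 5 cells per library that Scrublet called and a cell filter that removed 25 cells. These settings could hardly move most values, so the counts of unchanged results overstate how stable they were.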
